A study of Homo sapiens with 22 samples.

Results

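The 35 genes described here act in DNA replication and mitosis, from the loading of the replicative helicase to the separation of the chromosomes. They were taken from the count tables by gene symbol, and all 35 were found among 60664 genes. All libraries came from cells kept without serum, so levels in cells with serum were not measured. Of the 35 members, 18 passed the filter that the study applied, more than 10 CPM (read counts scaled to a common library total) in at least 2 of 22 libraries, as did 9770 genes in all. The other 17 members were not tested under this filter, and their low counts are described apart under looser filters.

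Bulk RNA was sequenced in 6 groups of IMR90, a human fibroblast line of lung origin. All cells received siRNA at 10 nM, renewed each day over 72 h, and spent the final 24 h without serum. The siRNA was either a nontargeting control or directed at MSK2, the nuclear kinase encoded by RPS6KA4 that is activated below ERK by growth factors. With each siRNA, cells were given PBS (4 libraries), 750 pM epidermal growth factor (EGF) for 30 min (4 libraries) or 750 pM EGF for 60 min (3 libraries), and the labels list the PBS groups under 60 min. The study asked which transcriptional changes after EGF need MSK2. A single cell line and a single siRNA product against MSK2 were used. The sources used here do not say that the libraries came from separate cultures, so P values measure the spread between libraries, which may be technical.

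Before a cell copies its DNA, origins are licensed by loading of the MCM2 to MCM7 helicase with the help of CDC6 and CDT1, and cyclin E with CDK2 then starts synthesis. Many of the genes for this machinery are switched on by E2F transcription factors once RB is phosphorylated, and are held down in resting cells by RB and the DREAM complex. Genes of mitosis are transcribed later, often through promoters that carry CCAAT boxes and the cell cycle homology region (CHR). Fibroblasts without serum leave the cycle, and both sets of transcripts then become scarce.

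Promoters of the RefSeq set (GRCh38.p14) were matched by symbol to 29 of the 35 members and searched on both strands over the 250 bases before the start for 4 E2F words (TTTCGCGC, TTTGGCGC, TTTCCCGC and TTTGCCGC), for CCAAT and for the CHR words TTTGAA and TTCGAA. An E2F word was present in 12 of the 29 members and in 2.79% of all 27305 promoters, CCAAT in 22 of 29 and in 33% of all promoters, and a CHR word in 6 of 29 and in 14.6% of all promoters. The promoters printed here are those of TK1, MCM6 and PCNA, chosen by the change of these genes with MSK2 siRNA. Past the filter, TK1 had the largest decrease of all members and MCM6 the largest among the helicase subunits. PCNA was called higher in every treatment. Each sequence covers 160 to 31 bases before the annotated start, 5′ to 3′ on the strand of the gene, with E2F words and CCAAT on either strand in capitals. The positions are chr17:78187235-78187364 for TK1, chr2:135876474-135876603 for MCM6 and chr20:5126653-5126782 for PCNA, all on the minus strand. Each window is free of annotated exons of the gene itself, and exons of other genes were not looked for there.
TK1: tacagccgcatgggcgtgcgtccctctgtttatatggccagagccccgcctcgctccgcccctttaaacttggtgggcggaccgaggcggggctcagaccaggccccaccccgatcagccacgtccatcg
MCM6: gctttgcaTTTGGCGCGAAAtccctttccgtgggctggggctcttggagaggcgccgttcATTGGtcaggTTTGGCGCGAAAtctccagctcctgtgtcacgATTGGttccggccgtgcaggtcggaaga
PCNA: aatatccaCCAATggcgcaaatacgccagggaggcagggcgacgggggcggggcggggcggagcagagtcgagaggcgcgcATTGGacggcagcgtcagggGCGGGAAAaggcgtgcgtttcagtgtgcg
In the MCM6 window each run TTTGGCGCGAAA holds 2 overlapping E2F words on opposite strands, and the 2 CCAAT matches read on the other strand. The PCNA window has 1 E2F word on the other strand and CCAAT on both strands. None of these letters occurred in the 250 bases of TK1.

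Gene counts per library ran from 7893209 to 22244216. RPS6KA4, the target of the MSK2 siRNA, was at 11.1 to 25.4 CPM with control siRNA and at 1.74 to 3.77 CPM with MSK2 siRNA after PBS, and it was lower by 87.7%, 85.6% and 86.3% after PBS and at 30 and 60 min of EGF, with no overlap of the groups (exact permutation test, 2-sided, P = 0.029, 0.029 and 0.1, the last the smallest that 3 against 3 libraries allow). All 13 fibroblast markers looked at were detected in every library, from S100A4 at 10.7 CPM upward, and leukocyte markers summed to at most 1.41 CPM. Some quantities moved with the siRNA. The mitochondrial share of counts was 1.16 to 2.07% with control siRNA and 1.54 to 2.86% with MSK2 siRNA, the sum of the fibroblast markers was 49481 to 68309 against 66339 to 79435 CPM, and the sum of 6 endothelial markers was 51.8 to 66.1 against 16.9 to 28.3 CPM. The last was mostly TEK, while PECAM1, CDH5, KDR and CLDN5 stayed at or below 1.6 CPM and CDH5 had no counts in some libraries. The part of these quantities in the results below was not tested.

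Per exon length, PCNA was by far the most abundant member. After PBS with control siRNA its level was 73.1 ± 8.36 RPKM (RPKM scales counts by exon length and library size; mean ± SD, n = 4), followed by RRM1 at 15.7 ± 2.01 and TK1 at 14 ± 1.59, whose libraries overlapped. MCM7 (8.88 ± 0.225), FEN1 (8.85 ± 0.762) and MCM3 (8.63 ± 1.12 RPKM) came next and did not differ beyond their spread. Among the members that passed the filter, RRM2 was lowest at 1.10 ± 0.241 RPKM. Exon length here is the union of all annotated exons of a gene, 9153 bases for RRM2, and the ranks by RPKM depend on it. In CPM, RRM2 (10.1 ± 2.2) and TYMS (9.34 ± 2.19) overlapped in this group. The members that did not pass lay between 0.0344 ± 0.0263 RPKM for E2F2 and 2.66 ± 0.536 RPKM for CCNA2. With MSK2 siRNA after PBS, PCNA stood at 91.1 ± 3.84 RPKM and TK1 at 4.28 ± 0.801 RPKM, the latter within the spread of MCM4 (4.55 ± 0.558 RPKM).

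Members differed between the siRNAs in every treatment. The members were chosen with earlier results of these data known, so their counts beside the shares of all genes are descriptive. The same limit holds for the counts under looser filters below. After PBS, 8 of the 18 members were lower with MSK2 siRNA than with control siRNA and 1 was higher, where 12.6% of all genes tested were lower and 12.2% higher (edgeR quasi-likelihood test, Benjamini-Hochberg adjusted P under 0.05). At 30 min of EGF, 9 were lower and 1 was higher, against 15.2% and 14.9% of all genes. At 60 min, 7 were lower and 2 were higher, against 10.1% and 9.37%. The mean difference of the 3 treatments, which uses all 22 libraries, called 11 lower and 2 higher, against 22.2% and 23.2% of all genes. These comparisons use separate libraries for each treatment except the last, which combines them. The count at 60 min rested on few libraries, with 5 members called without replicate 3 of the EGF 60 min control siRNA group and 5 without replicate 2 of the EGF 60 min MSK2 siRNA group, while the mean comparison called 13 with any library left out.

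The counts over members that passed the filter are not free of it. TK1, UHRF1, CCNE1 and RRM2 exceeded 10 CPM in control siRNA libraries and in none of the 11 MSK2 siRNA libraries, so they entered the comparison through the group in which they were high. For how many of all genes the libraries of the siRNAs do not overlap was not counted, here or for the members described below. Under the looser filterByExpr filter of edgeR, which left 34 of the 35 members among 15477 genes, 22 were lower and 2 higher in the mean comparison, against 17.7% and 16.9% of all genes. The treatments taken singly gave 15 lower and 1 higher after PBS (9.17% and 7.98% of all genes), 16 and 1 at 30 min (10.8% and 10.1%) and 14 and 1 at 60 min (7.31% and 5.69%). Without a filter, 22 of all 35 were lower and 1 was higher, against 5.09% and 4.98% of 48630 genes, with 16 lower and 1 higher after PBS (2.6% and 1.95%), 10 and 1 at 30 min (2.71% and 2.95%) and 14 and 1 at 60 min (2.09% and 1.48%). The median log2 fold change was -0.57 for the 34 members and 0.0044 for all genes under filterByExpr. Summed over all members, the level was 520.1 to 631.8 CPM in control siRNA libraries and 465.4 to 532.9 CPM in MSK2 siRNA libraries. The highest control library was replicate 4 after PBS, which had the fewest gene counts of all libraries (7893209). The next control library was at 574.3 CPM. In bulk RNA, fewer cells in the cycle and less RNA per cell cannot be told apart. By flow cytometry of DNA content, the study reported no change in the cell cycle profile of IMR90 with MSK2 knockdown, with or without EGF. How that measurement relates to the transcripts described here was not tested.

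**Figure D1:**
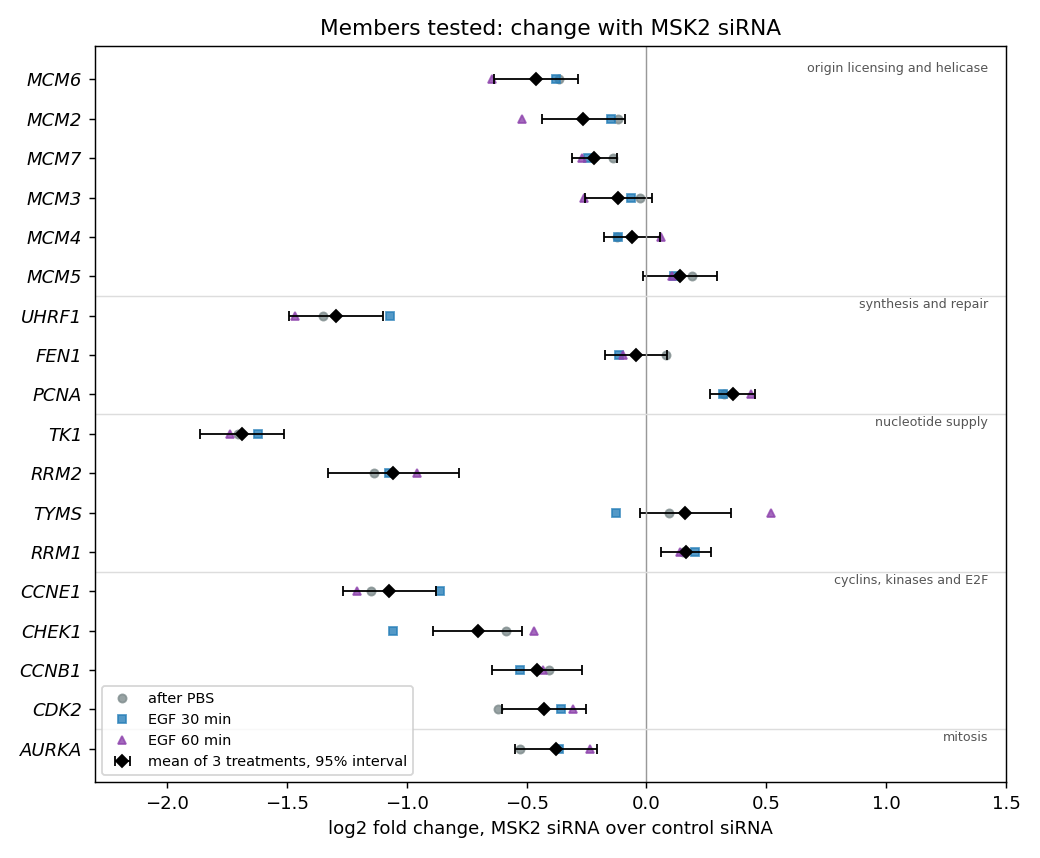
Log2 fold change of MSK2 siRNA over control siRNA for the 18 members past the filter, grouped by role, after PBS (circles), at 30 min (squares) and at 60 min of EGF (triangles), with the mean of the treatments and its 95% confidence interval (diamonds and bars). TK1, UHRF1, CCNE1 and RRM2, which passed the filter through control siRNA libraries alone, lie at -0.86 or below in every treatment. PCNA lies between 0.32 and 0.43.

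Of the 10 members that license origins or form the helicase, 6 passed the filter, and these were the helicase subunits MCM2 to MCM7. They did not move as a block. MCM6 (chromosome 2, 135839626 to 135876443, minus strand, GENCODE v44 on GRCh38) was at 30.5, 24.4 and 29.0 CPM with control siRNA and at 18.5, 14 and 21.2 CPM with MSK2 siRNA at 60 min of EGF. All 3 control libraries lay above all 3 MSK2 siRNA libraries, and MCM6 was lower by 0.65 on the log2 scale (log2 fold change -0.65, SE 0.16, adjusted P = 0.00472). Without replicate 2 of the EGF 60 min MSK2 siRNA group, the lowest library, its log2 fold change was -0.49 (adjusted P = 0.0544). At 30 min the libraries overlapped and MCM6 was lower by a smaller margin (-0.38, SE 0.14, adjusted P = 0.0405). After PBS the change was of like size and did not pass (-0.36, SE 0.14, adjusted P = 0.0558), but it passed with the replicate number as a block (-0.36, adjusted P = 0.0481 with all libraries and 0.0207 with the PBS groups alone). Over the 3 treatments the log2 fold change of MCM6 was -0.46 (SE 0.085, adjusted P = 5.56e-05).

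MCM2 had 13.4, 13.1 and 13.5 CPM with control siRNA and 10.3, 8.51 and 9.06 CPM with MSK2 siRNA at 60 min, without overlap (log2 fold change -0.52, SE 0.16, adjusted P = 0.0214). This call was lost when any of 4 of the 6 libraries was left out (adjusted P from 0.0509 to 0.0987), those being replicates 1 and 3 with control siRNA and replicates 2 and 3 with MSK2 siRNA. MCM2 did not pass after PBS (-0.12) or at 30 min (-0.15), and its mean over the treatments was -0.26 (SE 0.084, adjusted P = 0.0119). MCM7 changed little but evenly, with log2 fold changes of -0.24 at 30 min and -0.27 at 60 min that passed, -0.14 after PBS that did not, and a mean of -0.22 (SE 0.046, adjusted P = 0.000274). The other subunits passed in no treatment, with mean log2 fold changes of -0.12 for MCM3 (adjusted P = 0.168), -0.06 for MCM4 (0.413) and 0.14 for MCM5 (0.136). Annotated exons of other genes cover 23.6% of the exon length of MCM2 and 8.49% of that of MCM7, and reads there can belong to either gene.

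Of the 4 members that copy and finish DNA, 3 passed the filter and went in different directions. UHRF1, which reads hemimethylated sites and brings the maintenance methyltransferase to new DNA, was lower with MSK2 siRNA in every treatment. It passed the filter through control siRNA libraries alone. After PBS it was at 18.7, 16, 16.1 and 15.6 CPM with control siRNA and at 7.55, 5.47, 5.80 and 7.18 CPM with MSK2 siRNA. At 30 min of EGF the values were 18.0, 16.7, 11.5 and 15.4 against 8.26, 6.19, 6.77 and 7.94 CPM, and at 60 min 14.5, 17.4 and 17.8 against 7.08, 5.07 and 5.94 CPM. The highest MSK2 siRNA library, at 8.26 CPM, was below the lowest control library, at 11.5 CPM. UHRF1 changed by -60.8%, -52.4% and -63.8% in the 3 treatments, as log2 fold changes of -1.35 (SE 0.16, adjusted P = 1.77e-07), -1.07 (SE 0.15, adjusted P = 4.9e-06) and -1.47 (SE 0.18, adjusted P = 9.35e-07). The gene lies on chromosome 19 from 4903080 to 4962154 on the plus strand.

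PCNA, the sliding clamp that holds DNA polymerases on the template, went the other way. With control siRNA it was at 89.1, 101.8, 101.5 and 117.7 CPM after PBS, and with MSK2 siRNA at 129.5, 121.7, 125.9 and 134.4 CPM. At 30 min of EGF its values were 99.6, 95.5, 95.6 and 91.6 against 124.1, 113.5, 118 and 122 CPM, and at 60 min 78.4, 94.0 and 92.3 against 113.6, 118.9 and 125.5 CPM. The groups did not overlap within any treatment, although the highest control library after PBS, at 117.7 CPM, lay above the lowest MSK2 siRNA libraries given EGF. The log2 fold changes of PCNA were 0.32 (SE 0.076, adjusted P = 0.00197), 0.32 (SE 0.076, adjusted P = 0.00185) and 0.43 (SE 0.088, adjusted P = 0.000574). PCNA was the only one of the 18 members that was higher in all 3 treatments. FEN1, the nuclease that trims Okazaki fragments, passed in none, with log2 fold changes from -0.12 to 0.08. POLA1, the catalytic subunit of DNA polymerase alpha, did not pass the filter.

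All 4 members that supply nucleotides passed the filter, and they split by enzyme and by subunit. TK1, the thymidine kinase of the salvage route, had the largest decrease of the 18 members in each treatment. After PBS it was at 30.2, 25.0, 23.8 and 24.5 CPM with control siRNA and at 9, 7.67, 5.88 and 9.01 CPM with MSK2 siRNA. At 30 min of EGF the libraries were at 23.9, 24.4, 25.9 and 22.7 against 7.72, 8, 9.82 and 6.01 CPM, and at 60 min at 30.1, 26.9 and 25.7 against 8.83, 7.43 and 8.60 CPM. Every control library was at 22.7 CPM or more and every MSK2 siRNA library at 9.82 CPM or less. TK1 passed the filter through control siRNA libraries alone. TK1 changed by -69.3%, -67.5% and -70%, with log2 fold changes of -1.70 (SE 0.14, adjusted P = 3.25e-10), -1.62 (SE 0.14, adjusted P = 7.87e-10) and -1.74 (SE 0.16, adjusted P = 5.85e-09). TK1 lies on chromosome 17 from 78174091 to 78187233 on the minus strand.

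The subunits of ribonucleotide reductase, which makes deoxynucleotides, moved apart. RRM2, the small subunit, whose level follows S phase, was at 10.8, 7.65, 9.14 and 12.8 CPM with control siRNA and at 5.95, 5.54, 2.82 and 3.80 CPM with MSK2 siRNA after PBS. It was at 6.65, 10.9, 9.18 and 9.90 against 4.22, 3.63, 5.57 and 4.03 CPM at 30 min, and at 6.10, 9.33 and 10.2 against 4.85, 4.35 and 4.11 CPM at 60 min. The groups did not overlap, but the gap was narrow, since the lowest control library, replicate 1 at 60 min, had 6.10 CPM and the highest MSK2 siRNA library 5.95 CPM. RRM2 passed the filter through control siRNA libraries alone. The log2 fold changes of RRM2 were -1.13 (SE 0.22, adjusted P = 0.000257), -1.07 (SE 0.22, adjusted P = 0.00042) and -0.96 (SE 0.25, adjusted P = 0.0074). The last became -0.81 (adjusted P = 0.0515) without replicate 3 of the EGF 60 min control siRNA group. RRM1, the large subunit, passed in no single treatment (0.15, 0.20 and 0.14) and was slightly higher in their mean (log2 fold change 0.17, SE 0.05, adjusted P = 0.00821), with libraries from 57.4 to 79.1 CPM (median 61.9) with control siRNA and from 64.3 to 79.0 CPM (median 71.7) with MSK2 siRNA.

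TYMS, which makes thymidylate by the de novo route, passed the test at 60 min and in no other treatment. The values there were 8.73, 7.23 and 7.78 CPM with control siRNA and 9.94, 13.5 and 10.4 CPM with MSK2 siRNA, without overlap (log2 fold change 0.52, SE 0.18, adjusted P = 0.0363). The log2 fold change was 0.09 after PBS and -0.13 at 30 min, neither of which passed, and the difference between the siRNAs in the response to 60 min of EGF did not pass either (0.43, 95% confidence interval -0.05 to 0.91, adjusted P = 1). The call at 60 min was lost under 7 alternatives (adjusted P up to 0.238), among them leaving out replicate 2 or replicate 3 with control siRNA or replicate 2 with MSK2 siRNA. Exons of ENOSF1 and TYMSOS cover 47.9% of the exon length of TYMS, so its counts are uncertain.

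**Figure D2:**
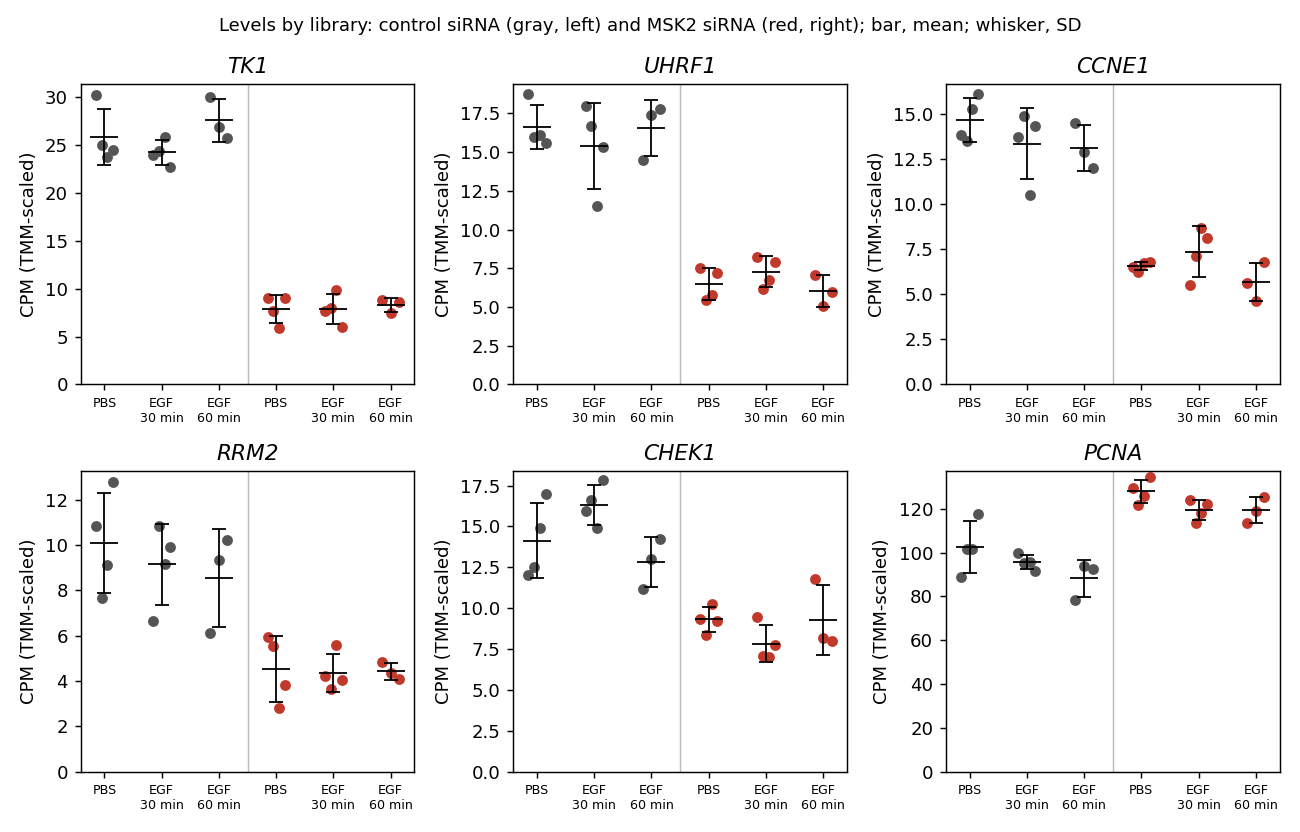
Levels in CPM (TMM-scaled) of 6 members in each library, control siRNA in gray and MSK2 siRNA in red, by treatment; the bar is the mean and the whisker the SD of 3 or 4 libraries. TK1, UHRF1, CCNE1 and RRM2, which passed the filter through control siRNA libraries alone, do not overlap between the siRNAs. CHEK1 overlaps at 60 min of EGF, and PCNA is higher with MSK2 siRNA in each treatment.

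Of the 10 cyclins, kinases and E2F factors, 4 passed the filter, and all 4 were lower in the mean of the treatments, beside 22.2% of all genes. Of the 4, CCNE1 passed the filter through control siRNA libraries alone. CCNE1, the cyclin that activates CDK2 at the start of S phase, was at 13.8, 13.5, 15.3 and 16.1 CPM with control siRNA and at 6.53, 6.25, 6.71 and 6.79 CPM with MSK2 siRNA after PBS. At 30 min of EGF it was at 13.7, 14.9, 10.5 and 14.3 against 5.49, 7.13, 8.69 and 8.12 CPM, and at 60 min at 14.5, 12.9 and 12.0 against 5.65, 4.65 and 6.78 CPM. The siRNAs did not overlap over all 22 libraries. CCNE1 changed by -54.9%, -44.9% and -56.7%, with log2 fold changes of -1.15 (SE 0.15, adjusted P = 1.68e-06), -0.86 (SE 0.15, adjusted P = 8.1e-05) and -1.21 (SE 0.18, adjusted P = 1.49e-05). Its paralog CCNE2 had 3 to 19 reads per library and did not pass the filter. CCNE1 lies on chromosome 19 from 29811991 to 29824312 on the plus strand.

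CHEK1, the kinase that slows the cycle when replication forks stall, was at 12.1, 12.6, 14.9 and 17 CPM with control siRNA and at 9.36, 8.38, 10.3 and 9.25 CPM with MSK2 siRNA after PBS (log2 fold change -0.59, SE 0.15, adjusted P = 0.00425). At 30 min of EGF its values were 16, 16.6, 14.9 and 17.8 against 9.47, 7.06, 7.03 and 7.75 CPM (-1.06, SE 0.15, adjusted P = 3.51e-06). Both sets of libraries were free of overlap. At 60 min 1 MSK2 siRNA library, at 11.8 CPM, lay above the lowest control library, at 11.2 CPM, and the difference did not pass (-0.47, SE 0.17, adjusted P = 0.0562). The mean over the treatments was -0.70 (SE 0.091, adjusted P = 2.93e-07). Exons of other genes, among them STT3A, cover 13.4% of the exon length of CHEK1.

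CDK2, the partner of cyclin E, was at 14.1, 13.5, 11.7 and 12.2 CPM with control siRNA and at 8.85, 9.37, 7.79 and 7.71 CPM with MSK2 siRNA after PBS, without overlap (log2 fold change -0.62, SE 0.14, adjusted P = 0.00168). It did not pass at 30 min (-0.36, adjusted P = 0.0547) or 60 min (-0.31, adjusted P = 0.198), and its mean was -0.43 (SE 0.085, adjusted P = 0.000163). Exons of other genes cover 16.8% of the exon length of CDK2. CCNB1, the cyclin of entry into mitosis, was at 16.6, 16.9, 20.1 and 17.7 CPM with control siRNA and at 10.9, 13.3, 11.9 and 13.6 CPM with MSK2 siRNA at 30 min, again without overlap (-0.53, SE 0.15, adjusted P = 0.00842). It was also lower after PBS (-0.41, adjusted P = 0.0487), where the libraries overlapped, and did not pass at 60 min (-0.43, adjusted P = 0.083), where they did not. The mean for CCNB1 was -0.45 (SE 0.091, adjusted P = 0.000169).

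AURKA, the kinase of centrosomes and spindle poles, was the only 1 of the 7 mitosis genes that passed the filter. It was at 16.3, 14.6, 17.8 and 15.9 CPM with control siRNA and at 11, 13.2, 9.94 and 10.5 CPM with MSK2 siRNA after PBS (log2 fold change -0.53, SE 0.14, adjusted P = 0.00541). The libraries overlapped at 30 min (-0.37, SE 0.14, adjusted P = 0.0441) and at 60 min, where the difference did not pass (-0.24, SE 0.16, adjusted P = 0.324). Its mean over the treatments was -0.38 (SE 0.083, adjusted P = 0.00051).

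Promoters with an E2F word belonged to members that were lower, higher or not called. Of the 11 members lower in the mean comparison, 9 had a promoter in the table and 3 of these held an E2F word (MCM6, MCM7 and UHRF1). Of the 2 that were higher, PCNA held 1. Of the 3 without a call that had a promoter, MCM3 and TYMS held 1. CCAAT was found in 6 of the 9 lower members, among them RRM2, CCNB1 and CHEK1, and in both PCNA and RRM1. These are matches of letters and were not tested as binding sites.

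The 17 members that did not pass the filter had from 0 to 180 reads per library. They include the loaders CDC6 and CDT1, the helicase factors MCM10 and GINS2, the E2F factors E2F1 and E2F2, and most mitosis genes. Under filterByExpr, 16 of them entered the fit, and 11 were lower with MSK2 siRNA in the mean of the treatments and 0 higher, beside 17.7% lower and 16.9% higher among all genes under that filter. The log2 fold changes of the 11 were -2.06 for MCM10, -1.66 for CDK1, -1.61 for CDC6, -1.25 for MKI67, -1.15 for TOP2A, -1.14 for AURKB, -1.05 for PLK1, -1.01 for BIRC5, -0.92 for BUB1, -0.75 for CCNA2 and -0.67 for GINS2. The value for MCM10 rests on few reads, with 5 to 12 per library after PBS and at 30 min of EGF and 0 to 2 at 60 min with MSK2 siRNA, so its size is uncertain. Reads with MSK2 siRNA were also few for CDK1 (2 to 32 per library), AURKB (2 to 23), MKI67 (1 to 46), BUB1 (1 to 44) and CDC6 (5 to 25). The sizes of these changes are uncertain too. This filter too can admit a gene through the group in which it is high. The licensing factor CDT1 (-0.18), POLA1 (0.26), CCNE2 (-0.72), E2F1 (-0.18) and the phosphatase CDC25A (0.14) did not pass (adjusted P from 0.069 to 0.469).

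TOP2A, the topoisomerase that untangles sister chromatids, was at 7.78 to 10.0 CPM (median 8.38) in the 11 control siRNA libraries and at 2.25 to 5.55 CPM (median 3.70) in the 11 with MSK2 siRNA. CDK1, the kinase that drives mitosis, was at 2.48 to 5.41 CPM (median 3.51) against 0.166 to 1.81 CPM (median 1.19). These libraries did not overlap, and the share of all genes for which this holds was not counted. CDC6 was at 1.53 to 3.72 CPM (median 2.80) against 0.414 to 1.66 CPM (median 0.867), with overlap. MKI67, the proliferation antigen, had 1.18 to 3.49 CPM (median 1.86) against 0.0604 to 2.85 CPM (median 0.807). AURKB, the mitotic kinase of histone H3, had 0.466 to 1.71 CPM (median 1.53) against 0.166 to 1.67 CPM (median 0.531). E2F1 was nearly level at 2.29 to 4.20 CPM (median 3.30) and 1.79 to 4.64 CPM (median 2.86), and CDC25A had medians of 6.15 and 6.90 CPM. E2F2 entered no fit but the one without a filter and had at most 7 reads in a library.

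**Figure D3:**
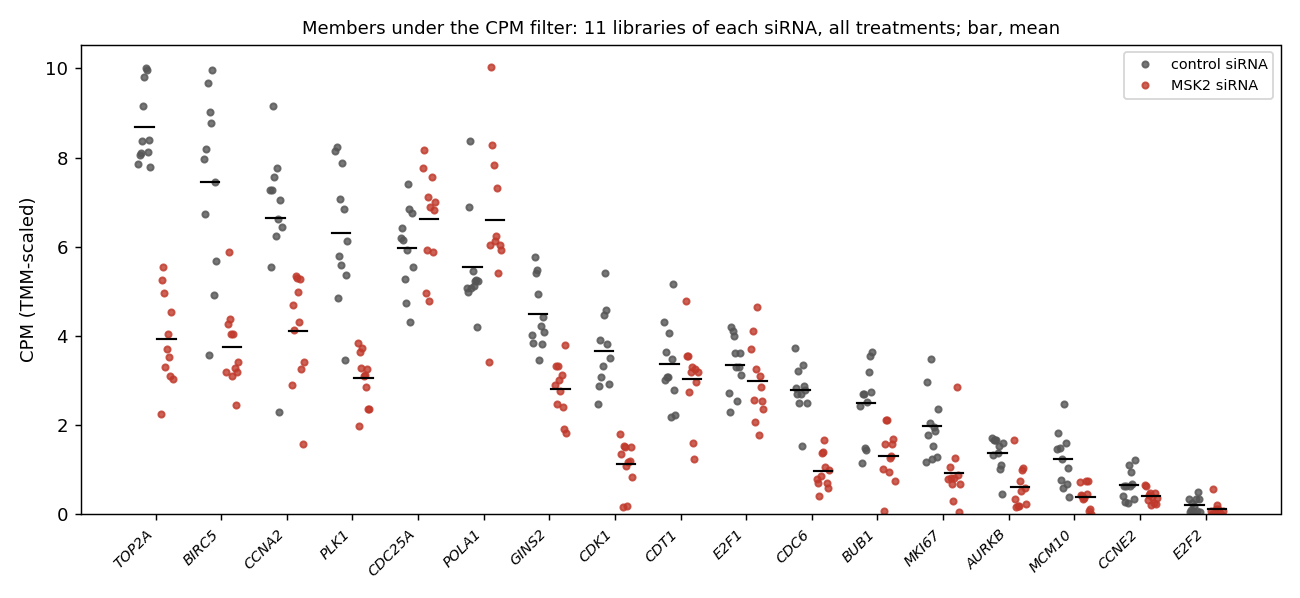
Levels in CPM (TMM-scaled) of the 17 members under the filter in 11 control siRNA libraries (gray) and 11 MSK2 siRNA libraries (red) over all treatments, with the mean as a bar. TOP2A and CDK1 do not overlap between the siRNAs, whereas CDT1, E2F1, CDC25A and POLA1 do.

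No member passed the test for a response to EGF. With control siRNA, 0 of the 18 members passed at 30 min, against 0.614% of all genes, and 0 passed at 60 min, against 2.65% (edgeR; at an unadjusted P under 0.05, 0 and 2 members, and 485 and 1093 of the 9770 genes). With MSK2 siRNA, 0 passed at 30 min, against 0.778%, and 0 at 60 min, against 2.16% (0 and 6 members at an unadjusted P under 0.05, and 957 and 838 of all genes). DESeq2 and the exact test of edgeR called 0 in each as well, and so did the fits of all 35 members without a filter. At 30 min the log2 fold changes ran from -0.13 to 0.22 with control siRNA and from -0.25 to 0.18 with MSK2 siRNA. At 60 min they ran from -0.23 to 0.14 and from -0.35 to 0.43. The 95% confidence intervals reached from -0.67 to 0.74 at most, which leaves room for changes of moderate size in single genes. Both EGF comparisons of a siRNA share its PBS libraries.

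Of the 6 members under an unadjusted P of 0.05 at 60 min with MSK2 siRNA, AURKA and CDK2 had positive and 4 had negative log2 fold changes. AURKA was at 11, 13.2, 9.94 and 10.5 CPM after PBS and at 14.1, 15.1 and 16.1 CPM at 60 min of EGF, without overlap (log2 fold change 0.43, SE 0.15, adjusted P = 0.197). CDK2 was at 7.71 to 9.37 CPM after PBS and at 10.2 to 12.3 CPM at 60 min (0.39, SE 0.15, adjusted P = 0.354). The 4 were MCM6, MCM2, FEN1 and MCM3. MCM6 was at 20.8, 23.7, 22.5 and 24.1 CPM after PBS and at 18.5, 14 and 21.2 CPM at 60 min, with overlap (-0.35, SE 0.15, adjusted P = 0.469). MCM2 had -0.31, FEN1 -0.28 and MCM3 -0.26 (adjusted P from 0.41 to 0.574). With control siRNA, PCNA had -0.21 (SE 0.083, adjusted P = 0.28). TK1, which of the 18 tested members differed most between the siRNAs, had log2 fold changes of -0.10 and 0.09 after EGF with control siRNA and of -0.01 and 0.06 with MSK2 siRNA.

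**Figure D4:**
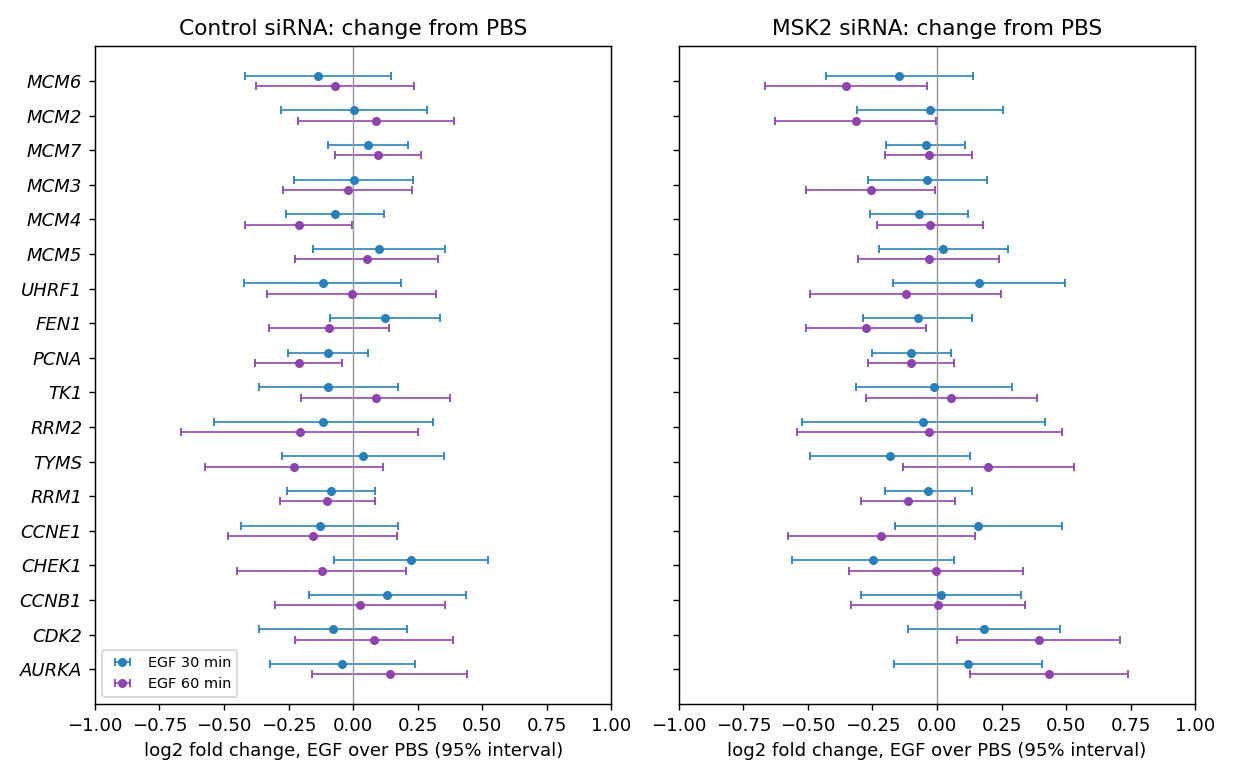
Log2 fold change of EGF over PBS with its 95% confidence interval for the 18 members past the filter, with control siRNA (left) and MSK2 siRNA (right), at 30 min (blue) and 60 min (purple). Estimates lie between -0.35 and 0.43, and none passed the adjusted test.

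Whether the siRNAs differed in the response of the members to EGF was tested directly. At 30 min 0 of 18 members passed, as did 0% of all genes, with 1 member (CHEK1) and 661 of the 9770 genes at an unadjusted P under 0.05. The log2 difference of CHEK1 was -0.47 (95% confidence interval -0.90 to -0.04, adjusted P = 0.713). At 60 min 0 members passed, against 0% of all genes, and 0 members and 216 genes were under an unadjusted P of 0.05. DESeq2 also called 0 members in both. For TK1 the differences were 0.08 (95% confidence interval -0.32 to 0.49) at 30 min and -0.03 (-0.47 to 0.41) at 60 min. For CCNE1 they were 0.29 (-0.15 to 0.73) and -0.06 (-0.55 to 0.43).

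Other genes of the same processes, from lists of further replication and mitosis genes, went in both directions. Of 62 further replication genes found in the tables, 36 passed the filter, and 12 were higher and 5 lower with MSK2 siRNA in the mean of the treatments, where 23.2% of all genes were higher and 22.2% lower. Among them RRM2B, the p53-inducible small subunit of ribonucleotide reductase, was higher (log2 fold change 0.73, SE 0.06, adjusted P = 7.18e-11), as were POLE3, a subunit of DNA polymerase epsilon (0.53), and RPA2, which coats single strands (0.36), while SLBP, the histone mRNA binding protein of S phase, was lower (-0.33). Of 57 further mitosis genes, 25 passed the filter, and 7 were higher and 10 lower, against the same shares of all genes. The tubulins TUBA1B (-0.79, SE 0.063, adjusted P = 4.28e-11) and TUBB (-0.62) were lower, and the spindle protein CKAP2 (0.42) and the phosphatase CDC25B (0.33) were higher.

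Of 24 regulators of the E2F, RB and DREAM system, 17 passed the filter, and 3 were higher and 2 lower, a smaller part in each direction than the 23.2% and 22.2% of all genes. MYBL1, a MYB family factor (1.42, SE 0.13, adjusted P = 7.64e-10), the repressor E2F7 (1.06, SE 0.077, adjusted P = 4.52e-12) and RB1 (0.37) were higher, and the activator E2F3 was lower (-0.46, SE 0.074, adjusted P = 8.14e-06). The median log2 fold change was 0.07 for the tested replication genes, -0.01 for the mitosis genes and -0.07 for the regulators, beside 0.01 for all genes. Of the marker lists, 4 of 13 fibroblast genes were higher and 6 lower, 0 of 3 epithelial genes tested were called, TEK was the only endothelial gene tested and was lower (-1.75, SE 0.093, adjusted P = 5.46e-15), and no leukocyte gene passed the filter.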

How the data were processed

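Libraries were built with Nextera XT from SMART-Seq v4 cDNA of total RNA. Per the submitters' processing notes, reads were made with bcl2fastq 2.20.0.422, aligned with STAR 2.7.9a to hg38 and counted with HTSeq 0.13.5. The deposited values are raw counts of reads per gene, in whole numbers, which the authors had not normalized. The annotation release and strand setting are not given in the sources used here. The 5 HTSeq summary lines, which hold 18.3 to 22.4% of reads, were left out. Genes over 10 CPM in at least 2 libraries (9770) were fitted in edgeR 4.0.16 (R 4.3.3) with TMM scaling, a mean for each of 6 groups and the quasi-likelihood test, adjusted over all genes by Benjamini-Hochberg, and called at an adjusted P under 0.05. Positions and exon lengths are those of GENCODE v44. CPM values use TMM-scaled library sizes.

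The members and gene lists were chosen with earlier results of these data known. Per-library values are given for up to 6 called members in each direction of a comparison. Fold changes are given for the other members of a complex with a called member, and for up to 4 genes of each other list with the smallest P in the mean comparison. CDK2, AURKA, MCM6 and members under the filter were also described by library values where the text turns on them. Alternatives were filterByExpr, no filter, DESeq2 1.42.0 and its size factors, library sizes only, the exact test of edgeR, only the compared groups, the replicate number as a block, and each library left out. After PBS, libraries with the same replicate number deviated together between the siRNAs (correlations 0.143 to 0.5 over 4 pairs). In none of the other pairs of groups looked at was every such correlation over 0.1. With control siRNA, they ran from 0.000118 to 0.416 between PBS and 30 min of EGF. Between PBS and 60 min of EGF they ran from -0.0347 to 0.398, so some libraries there may deviate together. The pairing after PBS comes from the data alone. Counts of replicates differed by more than sampling noise (chi-square per degree of freedom 5.05 to 31.8 over 30 pairs).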

Additional observations from a re-analysis of the deposited data

Results flagged for a closer look

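In 48 groups of 4 libraries, over 12 members, the highest or lowest library was compared with its neighbor, and 2 stood apart by more than the 95% critical value of the ratio of gap to range (Dixon), which chance gives in about 1 of 20 groups. RRM1 was at 79.1 CPM in replicate 4 of the PBS control siRNA group, where the next library had 62.8 CPM (ratio 0.938). MCM2 was at 12.3 CPM in replicate 3 of the EGF 30 min MSK2 siRNA group, where the next library had 11.1 CPM (ratio 0.854). No member passed the test for a different response to EGF between the siRNAs.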

How the results depend on the processing

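For 30 calls of the members with the largest changes in each siRNA comparison, 582 values were computed under the alternatives. Of these, 567 kept their direction and their side of the threshold, 15 kept the direction and lost the threshold, and 0 reversed. The 15 were in TYMS (7), MCM2 (5), MCM6 (1) and RRM2 (1) at 60 min of EGF and in RRM1 (1) in the mean comparison. Calls with smaller changes, such as CCNB1 after PBS and MCM6 and AURKA at 30 min, were not among the 30. The filter moved the number of members called most, and the number tested moved with it. The main fit called 9 of 18 after PBS, 10 at 30 min, 9 at 60 min and 13 in the mean. Of 34 tested with filterByExpr, 16 were called after PBS, 17 at 30 min, 15 at 60 min and 24 in the mean. Of 35 tested without a filter, 17 were called after PBS, 11 at 30 min (4 of them among the 17 members under the filter), 15 at 60 min and 23 in the mean. The shares of all genes under each filter are given above by direction. With each library left out in turn, 8 to 10 members were called after PBS, 8 to 10 at 30 min, 5 to 9 at 60 min and 13 in the mean, and 0 in every EGF comparison and difference. With the replicate number as a block, 10 members were called after PBS, 11 at 30 min, 9 at 60 min and 13 in the mean, and with only the compared groups 10, 9 and 7. Against the main fit, the block changed the call of MCM6 after PBS and of no other member. With the PBS groups alone, 8 members were called without the block and 10 with it. For the EGF pairs, whose numbers are not shown to pair, RRM1 at 30 min passed with the block (adjusted P = 0.0494). In the compared groups alone with the block, AURKA at 30 min (0.052), MCM7 at 60 min (0.0622) and TYMS at 60 min (0.0591) did not pass. With the 60 min groups alone, 7 members were called with or without the block, and TYMS passed in neither fit. Read numbers limit the 17 members under the filter, which had at most 180 reads in a library.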
